A study of Schizosaccharomyces pombe with 6 samples.

Results

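Messenger RNAs for 10 factors of cytoplasmic mRNA decay were measured in fission yeast (Schizosaccharomyces pombe) with a mutated nuclear poly(A) polymerase. The genes are ccr4, caf1, not1 and mot2 of the CCR4-NOT complex, dcp1, dcp2 and edc3 of the decapping machinery, the exonuclease gene exo2, and upf1 and upf2 of nonsense-mediated decay. They were taken by name from the gene names of the authors' deposited table, and each name matched 1 of the 6988 features of the count table. All 10 passed the filter on low counts that left 6267 features for testing.

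The mutant group, pla1-Y86D, had 3 libraries of a strain of mating type h- whose pla1 gene carries the active-site mutation Y86D linked to the drug marker kanMX. The control group, pla1-WT, had 3 libraries of an h- strain with wild-type pla1 linked to the same marker, so both groups carry kanMX. Both strains were grown in YES, a rich medium, to log phase, and poly(A)+ RNA was sequenced. Each genotype was represented by 1 strain, and nothing states that replicates came from separate cultures. The p-values thus set the difference between the strains only against the spread among these libraries, part of which may be technical. Decay rates and poly(A) tail lengths are not measured by these counts. Fewer cells with a given mRNA cannot be told apart from less of that mRNA per cell.

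Most cytoplasmic mRNAs in yeast begin their decay with the shortening of the poly(A) tail. The PAN2-PAN3 and CCR4-NOT complexes remove the tail, the Dcp1-Dcp2 enzyme then removes the cap, and the exonuclease Exo2 (the Xrn1 of budding yeast) degrades the body of the mRNA from the exposed end. Nonsense-mediated decay feeds mRNAs with premature stop codons into the same steps. The tail that these enzymes shorten is made in the nucleus by Pla1, the polymerase altered in the mutant.

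Total counts ranged from 17594840 to 21173765 in pla1-Y86D and from 19275152 to 21849845 in pla1-WT. Levels are given as CPM, counts scaled to a common library size with TMM factors (trimmed means of log ratios between libraries), and are therefore relative to the other mRNAs of the library. The pla1 mRNA itself was at 47.4 ± 0.85 CPM in pla1-Y86D and 36.6 ± 0.96 CPM in pla1-WT (SD, n = 3 each), which does not check a point mutation. As markers of the h- mating type, 7 M-cell genes had 3 higher and 2 lower in the mutant, with a summed level of 143.2 to 148.3 CPM in pla1-Y86D and 141.4 to 148 CPM in pla1-WT. The defining M-cell gene mat1-Mc was listed at 0 in all libraries. The reason was not tested, so it gives no check of the mating type. For both sets of markers, the shares over all features are 40.1% higher and 41.1% lower by the edgeR test described below. Markers of the opposite mating type had 4 of 5 higher and 1 lower, and summed to 471 to 488 CPM in pla1-Y86D and 441 to 463 CPM in pla1-WT, mostly from sxa1. Their part in the results on the decay genes was not tested.

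In pla1-Y86D the mRNAs of 7 of the 10 decay genes were lower and those of 2 were higher, each at an adjusted p under 0.05 (edgeR quasi-likelihood test, Benjamini-Hochberg adjustment over all features tested). The decreases were in not1, dcp2, ccr4, upf2, dcp1, edc3 and upf1, and the increases in mot2 and caf1, while exo2 was not called. By the same test 81.2% of all features were called, with 41.1% of all features lower and 40.1% higher. The 10 genes are all protein-coding, and of the 4996 protein-coding features tested 2336 were lower and 1779 higher. A call in 9 of 10 genes was thus near the background. The median log2 fold change of the 10 genes was -0.17, against -0.0047 over all features tested and -0.055 over the 4996 protein-coding ones. No decay gene of the 10 changed 2-fold, with values between -0.73 and 0.22. Over all 6267 features tested 714 were called with a change of at least 2-fold, as were 331 of the 4996 protein-coding ones. The lack of a 2-fold change among 10 genes was thus near the background. The strains' libraries did not overlap for any of the 10 genes, with 2 higher and 8 lower in the mutant. Over all features 81.9% had no overlap, 40.4% higher and 41.5% lower in the mutant. Taken by step, the summed CPM of the 4 CCR4-NOT genes was 430 to 437 in pla1-Y86D and 511 to 517 in pla1-WT. That of the 3 decapping genes was 172 to 175 in pla1-Y86D and 209 to 212 in pla1-WT. The 2 genes of nonsense-mediated decay summed to 201 to 205 CPM in pla1-Y86D and 234 to 238 CPM in pla1-WT. For exo2 alone it was 187 to 188 CPM in pla1-Y86D and 190.2 to 195.5 CPM in pla1-WT. The 4 CCR4-NOT genes held 2 that rose, so a sum does not stand for each gene. The 32 other pathway genes described below summed to 3637 to 3680 CPM in pla1-Y86D and 3676 to 3697 CPM in pla1-WT, which overlap.

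**Figure D1:**
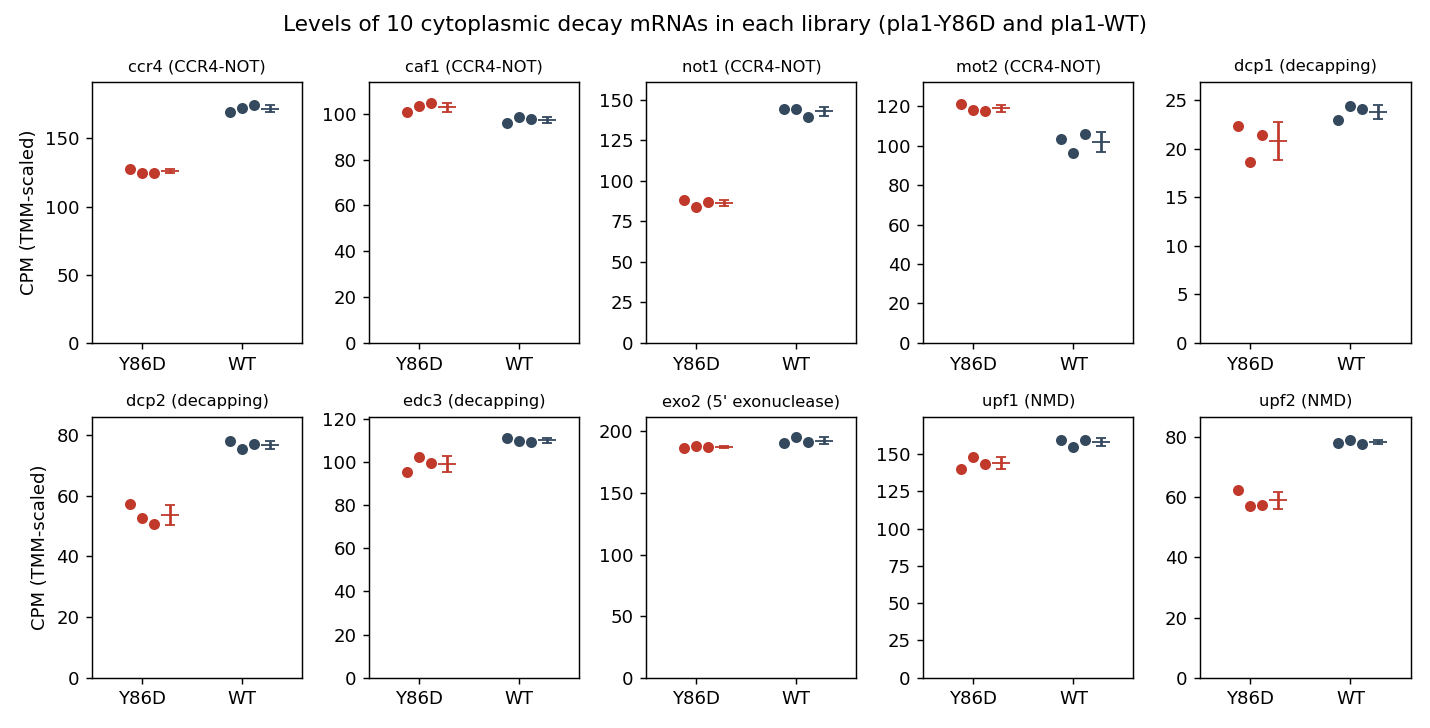
CPM of each of the 10 decay mRNAs in the 3 pla1-Y86D libraries (red) and the 3 pla1-WT libraries (dark blue), with the mean and SD of each strain beside the points and every axis starting at 0. The widest gaps between the strains are those of not1, dcp2, ccr4 and upf2, while exo2 is nearly level.

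Among the CCR4-NOT genes the scaffold subunit and one nuclease fell, while the ubiquitin ligase subunit rose. The not1 mRNA (SPAC20G8.06), whose protein is the scaffold on which the complex assembles, had 87.8, 83.9 and 86.6 CPM in pla1-Y86D replicates 1 to 3, against 144, 144 and 139 CPM in pla1-WT replicates 1 to 3. All mutant libraries lay far below all control libraries. The level was 60.4% of that in pla1-WT, a log2 fold change of -0.73 (SE 0.031, adjusted p by edgeR = 4.0e-21). This was the widest change of the 10, and 87.8% of protein-coding features changed less in either direction.

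The ccr4 mRNA (SPCC31H12.08c) encodes one of the complex's deadenylase subunits. Its level was 128, 125 and 125 CPM in pla1-Y86D, against 169, 172 and 174 CPM in pla1-WT. The replicates of each strain lay within a few CPM of each other, and the groups were far apart, with a log2 fold change of -0.45 (SE 0.027, adjusted p by edgeR = 8.1e-17).

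The other deadenylase gene, caf1 (SPCC18.06c), did not follow ccr4. Its mRNA was at 101, 103 and 105 CPM in pla1-Y86D, against 95.8, 98.5 and 97.8 CPM in pla1-WT. The lowest mutant library was just above the highest control library. The log2 fold change was 0.08 (SE 0.032, adjusted p by edgeR = 0.0212), and 16% of protein-coding features changed less. With protein-coding features alone the value was 0.13. The call was lost under DESeq2 (adjusted p = 0.0773), and by edgeR without pla1-Y86D replicate 2 (adjusted p = 0.0566), without pla1-Y86D replicate 3 (0.0890) and without pla1-WT replicate 1 (0.0800). It was also not called in the authors' deposited table, where the log2 fold change was 0.08.

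The mot2 mRNA (SPAC16C9.04c), for the ubiquitin ligase subunit known as Not4 in budding yeast, was at 121, 118 and 118 CPM in pla1-Y86D, against 103, 96.4 and 106 CPM in pla1-WT. Control replicate 2 was the lowest of the 6 libraries. On the log2 scale the mRNA rose by 0.22 (SE 0.033, adjusted p by edgeR = 2.1e-07).

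Every decapping gene of the 3 was lower in the mutant, as were 41.1% of all features and 2336 of 4996 protein-coding ones. The dcp2 mRNA (SPAC19A8.12), for the subunit that cuts the cap, was at 57.1, 52.8 and 50.8 CPM in pla1-Y86D, against 78.0, 75.2 and 77.1 CPM in pla1-WT. The mutant libraries were all below the controls, and the difference was -0.52 on the log2 scale (SE 0.040, adjusted p by edgeR = 6.6e-14).

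The dcp1 mRNA (SPBC3B9.21), for the small regulatory subunit that binds Dcp2, had the fewest reads of the 10, with 336 to 535 counts per library. It was at 22.3, 18.6 and 21.4 CPM in pla1-Y86D, against 23.0, 24.4 and 24.1 CPM in pla1-WT. Mutant replicate 2 stood below the other libraries, and mutant replicate 1 came close to control replicate 1. On the log2 scale the change was -0.20 (SE 0.068, adjusted p by edgeR = 0.00841). It lost its call without pla1-Y86D replicate 2, where the log2 fold change was -0.12 (adjusted p by edgeR = 0.119), and when protein-coding features alone were fitted (-0.14, adjusted p by edgeR = 0.0523).

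The edc3 mRNA (SPBC18E5.11c) encodes an enhancer of decapping that binds Dcp2. It was at 95.1, 102 and 99.7 CPM in pla1-Y86D, against 111, 109.7 and 109.1 CPM in pla1-WT. The groups were separate but close, and the log2 fold change was -0.15 (SE 0.032, adjusted p by edgeR = 8.5e-05). With protein-coding features alone it was -0.094.

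The exo2 mRNA (SPAC17A5.14), for the cytoplasmic exonuclease that acts after decapping, had 3261 to 4295 counts per library. It was at 187, 188 and 188 CPM in pla1-Y86D, against 190.2, 195.5 and 191.7 CPM in pla1-WT. The groups did not overlap, but their means differed by less than the range of the control libraries. The log2 fold change of -0.04 (SE 0.025) did not pass the test (adjusted p by edgeR = 0.148), and it was 0.02 with protein-coding features alone.

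Both genes of nonsense-mediated decay were lower, as were 41.1% of all features and 2336 of 4996 protein-coding ones. The upf2 mRNA (SPAC19A8.08), for the adaptor that links Upf1 to the rest of the machinery, was at 62.4, 57.3 and 57.4 CPM in pla1-Y86D, against 78.0, 79.2 and 77.9 CPM in pla1-WT. Mutant replicate 1 was the highest of its strain and still well below the controls, and the log2 fold change was -0.41 (SE 0.038, adjusted p by edgeR = 7.3e-12).

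The upf1 mRNA (SPAC16C9.06c), for the helicase of the pathway, was at 140.2, 148 and 143 CPM in pla1-Y86D, against 159.6, 154.7 and 159.8 CPM in pla1-WT. The highest mutant library was below the lowest control library. The log2 fold change was -0.14 (SE 0.028, adjusted p by edgeR = 4.9e-05), and -0.081 with protein-coding features alone.

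In the authors' deposited table all 10 genes had the same direction as here, and 8 passed an adjusted p of 0.05, all but caf1 and exo2. That table called 71.5% of the features for which it gives an adjusted p.

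The ratio of 2 mRNAs within a library does not depend on how the library is scaled. Over 7 pairs of genes from the same complex or from consecutive steps, the strains' ratios did not overlap in any pair. Over every pair of protein-coding features that share was 82.5%, so separate ratios were common. The exact two-sided permutation test gave p = 0.1 for each pair, adjusted p = 0.1 over the 7 pairs, and 0.1 is the smallest p that 3 libraries against 3 allow. The change was widest for mot2 over not1, at 1.38 ± 0.025 in pla1-Y86D and 0.714 ± 0.046 in pla1-WT (SD, n = 3 each). The ratio was above 1 in all mutant libraries and below 1 in all control libraries, on the CPM scale, which is not corrected for length.

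The mRNAs of the deadenylases also shifted against each other, with a ccr4 to caf1 ratio of 1.22 ± 0.038 in pla1-Y86D and 1.77 ± 0.018 in pla1-WT (SD, n = 3 each). Within decapping, dcp2 over dcp1 was 2.59 ± 0.23 in pla1-Y86D and 3.23 ± 0.15 in pla1-WT. The edc3 to dcp2 ratio was 1.86 ± 0.16 in pla1-Y86D and 1.43 ± 0.023 in pla1-WT. The mRNA ratio of the exonuclease to the decapping enzyme, exo2 over dcp2, was 3.51 ± 0.21 in pla1-Y86D and 2.51 ± 0.082 in pla1-WT. For upf1 over upf2 it was 2.44 ± 0.17 in pla1-Y86D and 2.02 ± 0.054 in pla1-WT. For not1 over ccr4 it was 0.684 ± 0.011 in pla1-Y86D and 0.830 ± 0.028 in pla1-WT.

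**Figure D2:**
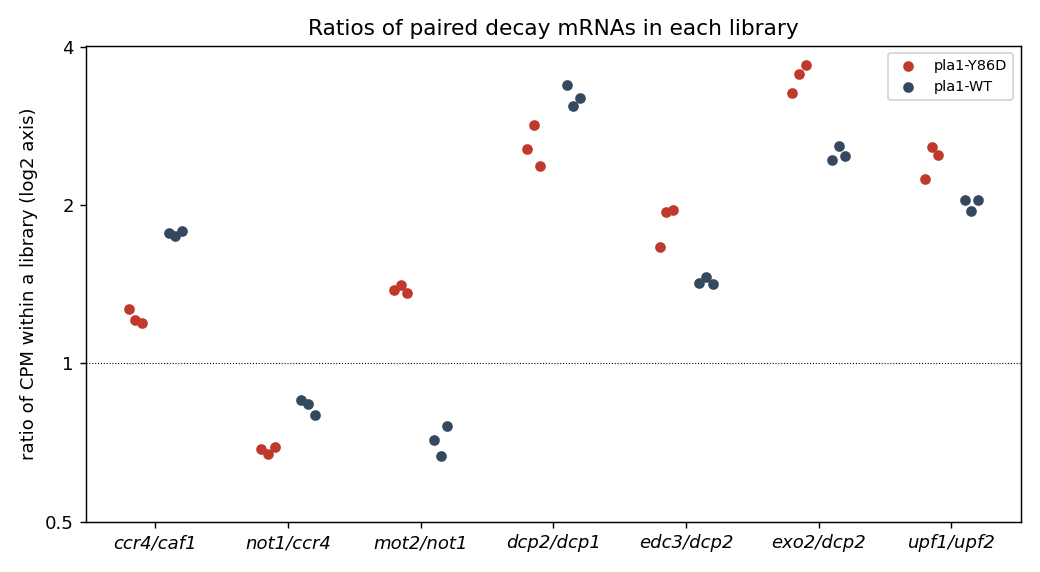
Ratio of the CPM of paired decay mRNAs within each library, on a log2 axis, with the 3 pla1-Y86D libraries (red) left of the 3 pla1-WT libraries (dark blue) for each pair and a dotted line at equal CPM. The strains do not overlap in any of the 7 pairs, and mot2 over not1 lies above 1 in pla1-Y86D and below 1 in pla1-WT.

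Levels of different genes were set in order per kilobase of coding sequence, with coding lengths from the RefSeq annotation of assembly ASM294v3. The counts are per annotated feature and may hold reads from untranslated parts, which coding length leaves out. For edc3, 3022 bases of its span overlap a gene on the opposite strand, against a coding length of 1365 bases. The order thus holds for coding length alone, and an order by full mRNA length was not tested. On this scale caf1 was the highest, at 102 ± 2.0 CPM per kilobase in pla1-Y86D and 96.6 ± 1.4 in pla1-WT (SD, n = 3 each). The scaffold gene not1 was the lowest, at 13.7 ± 0.32 CPM per kilobase in pla1-Y86D and 22.6 ± 0.47 in pla1-WT. In pla1-Y86D the order was caf1, mot2, edc3, ccr4, dcp1, upf1, exo2, dcp2, upf2 and not1. In pla1-WT ccr4 and mot2 changed places, with ccr4 next after caf1 at 83.0 ± 1.2 CPM per kilobase and mot2 below edc3 at 69.3 ± 3.3.

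Among neighbours in these orders, dcp1 (48.4 to 58.2 CPM per kilobase over the libraries) and upf1 (50.5 to 53.3) overlapped in pla1-Y86D. All other neighbours were separate in both strains. In pla1-WT the libraries of ccr4 (81.7 to 84.2) and edc3 (79.9 to 81.3) were separate but close.

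**Figure D3:**
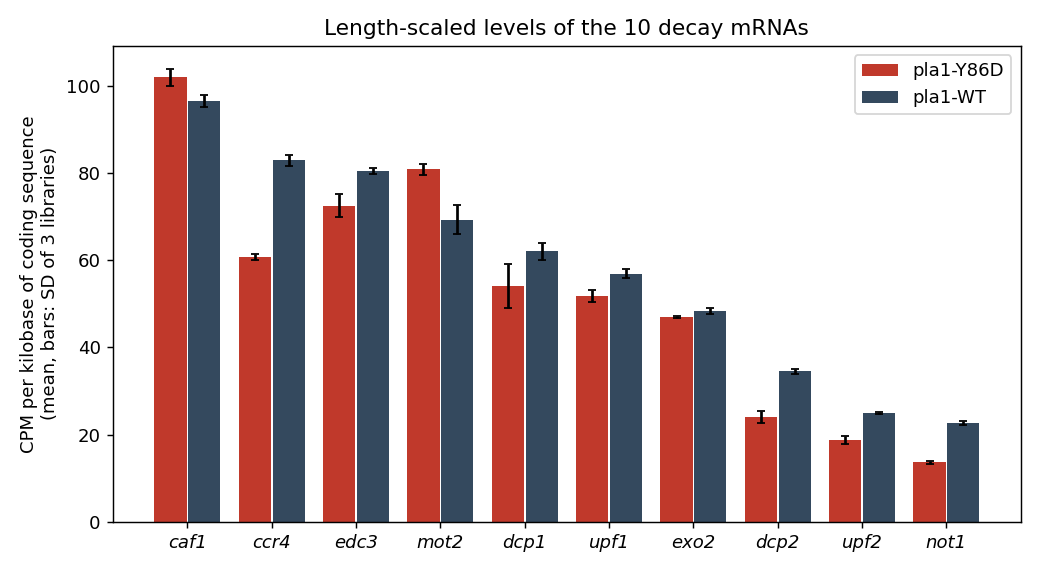
Mean CPM per kilobase of coding sequence of the 10 decay mRNAs in pla1-Y86D (red) and pla1-WT (dark blue), with the SD of 3 libraries as bars, ordered by the level in pla1-WT. The highest is caf1 and the lowest not1 in both strains, and mot2 stands above ccr4 in pla1-Y86D.

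The other genes of these pathways were taken from a list of 32 genes named by role, and all 32 were matched and tested. Of these, 9 were higher, 14 lower and 9 not called in pla1-Y86D, against 40.1% higher and 41.1% lower over all features. Of 4996 protein-coding features 1779 were higher and 2336 lower. The median log2 fold change of the 32 genes was -0.054. None of them changed 2-fold, against 331 of 4996 protein-coding features called at 2-fold or more. In that list pab1 was matched by its symbol to the gene of a phosphatase regulatory subunit, and est1 is annotated as a telomerase regulator. Without these 2 genes and with 4 others added once the names in the files were known, 10 were higher and 15 lower of 34.

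In the rest of CCR4-NOT 3 genes were lower and 1 higher of 4. The subunit gene not3 was at 112 ± 0.99 CPM in pla1-Y86D and 146 ± 0.56 CPM in pla1-WT, a log2 fold change of -0.38 (adjusted p by edgeR = 1.8e-14). Log2 fold changes were -0.15 for not2, -0.15 for not11 and 0.16 for rcd1. With the 4 CCR4-NOT genes described first, 5 of 8 were lower and 3 higher, none 2-fold. Over all features 41.1% were lower and 40.1% higher. Of 4996 protein-coding features 2336 were lower and 1779 higher, and 331 were called at 2-fold or more. Of the PAN2-PAN3 complex the list held pan2, the nuclease gene, and ppk26, a kinase gene that the authors' deposited table also annotates to it. Their log2 fold changes were -0.33 for pan2 and -0.46 for ppk26, while pan3, left out of the list as written, was at 0.09 (adjusted p by edgeR = 4.8e-11, 7.2e-12 and 0.00803).

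Of 11 activators of decapping and LSM ring genes 5 were higher, 3 lower and 3 not called. Over all features 40.1% were higher and 41.1% lower, and of 4996 protein-coding features 1779 were higher and 2336 lower. The Lsm proteins form a ring that binds the shortened tail, and Lsm1 is the subunit that sets the cytoplasmic ring apart from the nuclear one, while Lsm2 to Lsm7 belong to both. The lsm1 mRNA was at 77.6 ± 2.1 CPM in pla1-Y86D and 132 ± 5.2 CPM in pla1-WT. Its log2 fold change of -0.77 (SE 0.034, adjusted p by edgeR = 9.9e-21) was the widest decrease of the list.

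By contrast lsm3 was at 128 ± 4.2 CPM in pla1-Y86D and 84.2 ± 1.2 CPM in pla1-WT, a log2 fold change of 0.60 (adjusted p by edgeR = 2.3e-18). This was the widest increase of the list. The shared ring genes lsm5 and lsm7 rose by 0.30 and 0.17 and lsm6 fell by 0.15 on the log2 scale. For lsm2 (-0.04) and lsm4 (-0.05) the test was not passed.

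Of the other activators, pdc1, annotated as a P-body assembly protein gene, was at 56.3 ± 2.5 CPM in pla1-Y86D and 82.8 ± 2.7 CPM in pla1-WT (log2 fold change -0.56, adjusted p by edgeR = 4.6e-15). The decapping factor gene pdc2, the Pat1 of budding yeast, rose by 0.22. The log2 fold change of sum2, annotated as an inhibitor of translation initiation, was 0.34. The helicase gene ste13, the Dhh1 of budding yeast, had a log2 fold change of 0.02 (adjusted p by edgeR = 0.417), and it was called at 0.08 with protein-coding features alone (adjusted p by edgeR = 0.00467).

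The scavenger decapping gene nhm1, whose enzyme cleaves the cap left after decay, had a log2 fold change of 0.36 (adjusted p by edgeR = 1.2e-12). Genes of the Ski complex, which assists the exosome in the cytoplasm, had 2 of 4 lower, against 41.1% of all features. Of 4996 protein-coding features 2336 were lower. The 2 lower Ski genes were ski3, at -0.33 on the log2 scale, and rec14, at -0.29. The ribosome rescue genes dom34 (0.16) and hbs1 (0.18) were both higher, as were 40.1% of all features and 1779 of 4996 protein-coding ones. The gene zfs1, for a zinc finger protein related to mammalian tristetraprolin, was at 95.6 ± 2.3 CPM in pla1-Y86D and 142 ± 5.7 CPM in pla1-WT (log2 fold change -0.57, adjusted p by edgeR = 1.5e-17). The third NMD gene, upf3, had a log2 fold change of -0.04 (adjusted p by edgeR = 0.457). The nuclear exonuclease gene dhp1, a relative of exo2, was at -0.06 (adjusted p by edgeR = 0.0852).

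**Figure D4:**
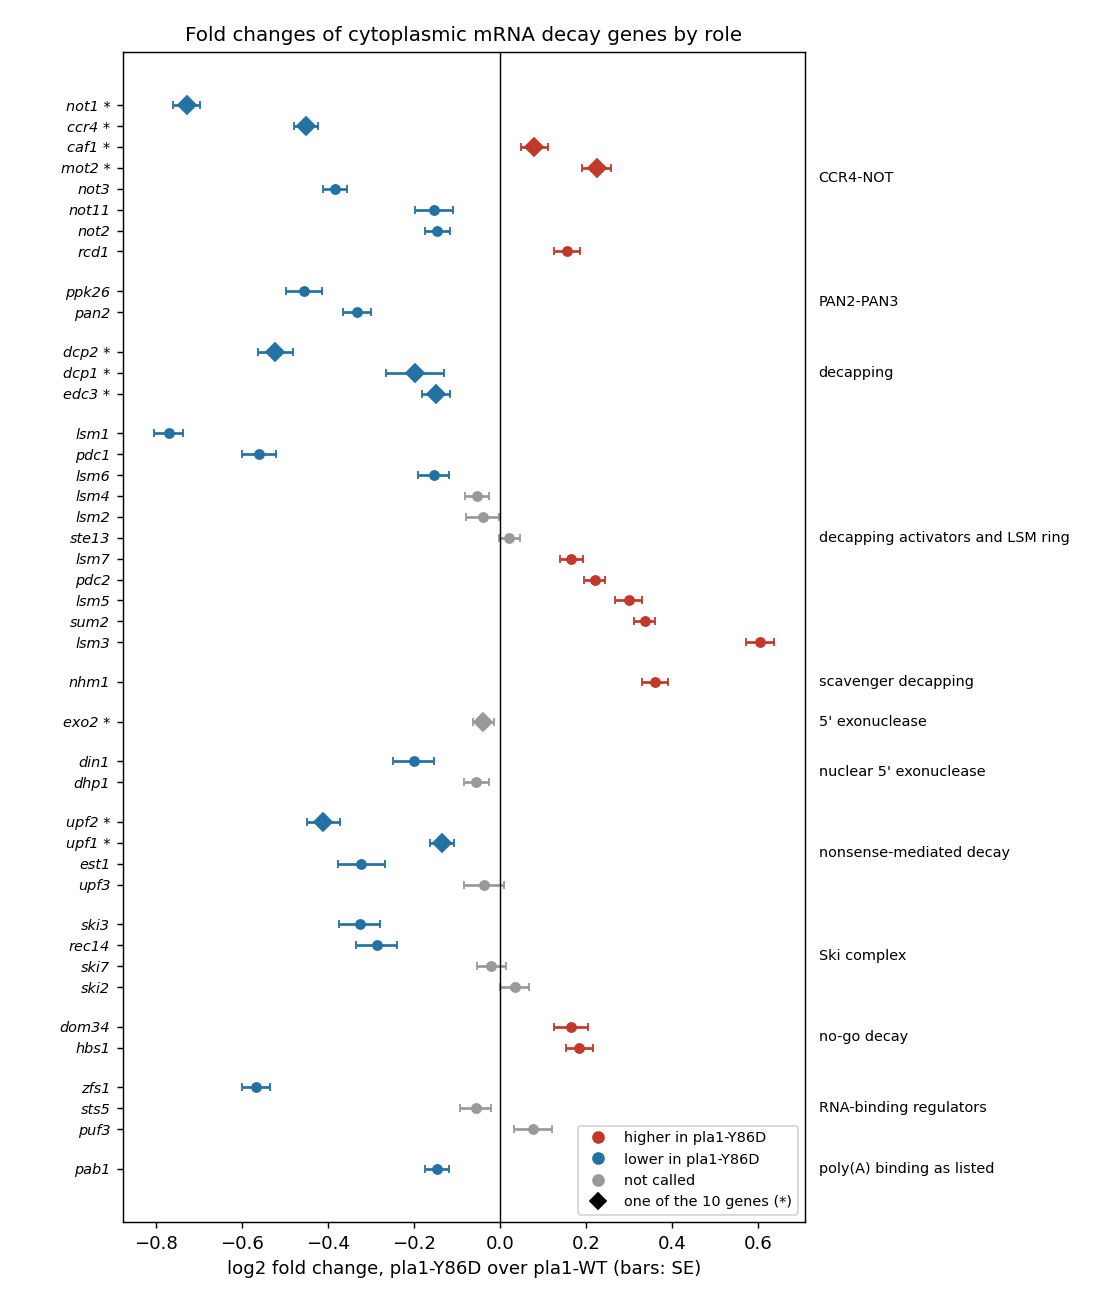
Log2 fold change of pla1-Y86D over pla1-WT, with SE bars, for the 10 decay genes (diamonds, starred) and the 32 other genes of the list (circles), grouped by role. Red marks an edgeR adjusted p under 0.05 upward, blue downward and grey a gene not called, and the CCR4-NOT and LSM groups hold genes on both sides of 0. Roles are those of the list as written. It places est1, a telomerase regulator gene, under nonsense-mediated decay and pab1, a phosphatase subunit gene, under poly(A) binding.

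The 10 genes differ widely in length and structure. Coding lengths ran from 384 bases in dcp1 to 6303 bases in not1, and 6 of the genes have a single coding exon. The median log2 fold change was -0.43 for those 6 genes and -0.09 for the 4 with several coding exons. Over all protein-coding features tested it was -0.072 for 2630 genes with a single coding exon and -0.038 for 2366 with several.

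Of the 10 genes, 6 have a coding length of 1974 bases or more, the longest of 5 about equal classes of protein-coding features, and 5 of those 6 were lower. In that class 56.7% of 998 features were lower and 25.4% higher, against 42.7% lower and 38.5% higher of 1007 in the shortest class. Spearman's rho between coding length and log2 fold change was -0.38 across the 10 genes and -0.11 across the 4996 protein-coding features. Genes of one set of libraries are not independent replicates. The part of length in the decreases was not tested.

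**Figure D5:**
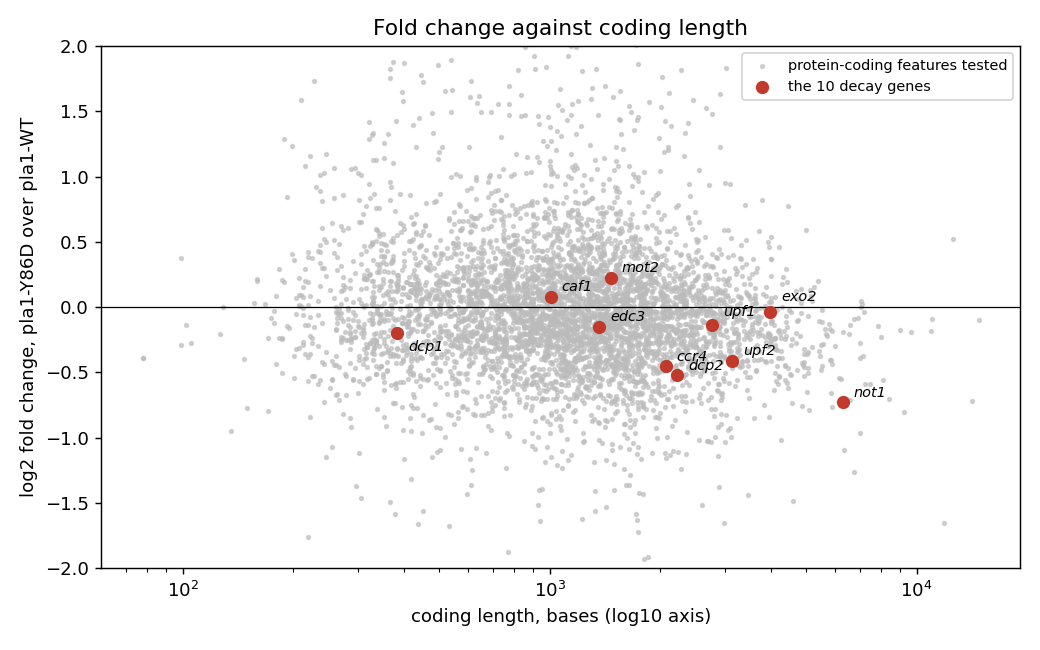
Log2 fold change of pla1-Y86D over pla1-WT against coding length in bases (log10 axis) for 4996 protein-coding features (grey) and the 10 decay genes (red). The vertical axis ends at 2 in each direction and leaves out 72 features, and 6 of the 10 genes lie beyond 1974 bases, with not1 the longest and the lowest.

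In the reference annotation the span of edc3 is covered over 88.9% by the gene SPBC18E5.10 on the opposite strand, which was at 13.2 CPM in pla1-Y86D and 17.3 CPM in pla1-WT. The span of dcp1 shares 78 bases with oms1 on the same strand, a gene with a log2 fold change of -0.52. The span of caf1 shares 52 bases with a protein-coding gene on the same strand, which was not tested. Noncoding RNAs annotated on the opposite strand cover 92.1% of upf1, 89.3% of dcp1 and 55.7% of ccr4, and smaller parts of caf1, not1, mot2, exo2 and upf2. How strand was used in the counting is not given in the sources used here. The counts of these 9 genes could thus hold reads of the overlapping genes or lack reads that fall on both. The span of dcp2 overlaps no other annotated gene.

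The pattern of not1 across the 6 libraries was closest to those of bdf1, SPBC1778.07 and erm1, with Pearson's r of 0.9998, 0.9997 and 0.9996 over 6 libraries. Their log2 fold changes were -0.39, -0.75 and -0.25. Of 4865 protein-coding features compared, 1615 had an r above 0.95 with not1. In each of these genes the 3 libraries of one strain lay apart from the 3 of the other.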

How the data were processed

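The authors deposited read counts per annotated feature without normalization, and the submitters' processing notes name build ASM294v2, the aligner HISAT2 2.1.0, the counter HTSeq 0.10.0, SAMtools, DESeq and DESeq2. The sources used here do not give the strand setting or the annotation release. Per the file headers, the authors' second table holds log2 fold changes with standard errors, a Wald score, p-values and mean signal (counts divided by size factors). From it only names, product annotations, fold changes and adjusted p were used.

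Counts were tested with edgeR 4.0.16 (R 4.3.3): filterByExpr, TMM, robust quasi-likelihood fit with strain as the only term over all 6 libraries, Benjamini-Hochberg adjustment. Standard errors are the fold change over the root of F. The fit was tested on simulated data with known changes. Every simulated feature had the same dispersion, so that test checks the fitting code and not the calls in these data. No 2 libraries were near-duplicates (chi-square over its degrees of freedom 1.63 to 4.83 within strains), though no cut-off was used. The lowest value, closest to that of counting noise alone, was between pla1-Y86D replicates 1 and 2. Every other pair was at 2.87 or more. The common biological coefficient of variation was 2.42%. RefSeq ASM294v3 (6836 of 6988 features matched) is not the deposited build, so it gave only feature classes, coding lengths and overlaps. Same-numbered replicates did not deviate together, so no pairing was used.

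All 10 decay genes are named. Of the listed pathway genes, the 6 with the widest called changes (mean count at least 50) are named, plus those that fill a count. Genes, lists and rules were chosen with earlier results of these data known. Alternatives were DESeq2 1.42.0, limma-voom 3.58.1, RLE and upper-quartile scaling, no filter, protein-coding features alone, a replicate block and leaving out each library.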

Additional observations from a re-analysis of the deposited data

How the results depend on the processing

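The number of called features stayed between 4111 (protein-coding features alone, 4996 tested) and 5162 (no filter on low counts), with 5086 as reported. The replicate block gave 5057 called features and the same 2 higher and 7 lower decay genes, and the numbers did not pair the libraries (correlations of deviations -0.07, -0.03 and -0.06). The count of decay genes called higher was 1 under DESeq2 in place of 2, and it ranged from 1 to 2 when single libraries were left out, where caf1 lost its call. The count called lower ranged from 6 to 7 over the same fits. Fitting protein-coding features alone raised the log2 fold change of all 42 listed genes by 0.054 to 0.055. This moved 7 of 32 called genes by over 1.5 times, each still called: caf1 (0.13), edc3 (-0.094), upf1 (-0.081), not2 (-0.091), not11 (-0.099), pab1 (-0.091) and lsm6 (-0.10). It also called ste13 (0.076), ski2 (0.088) and puf3 (0.13), so that 12 other pathway genes were higher in place of 9. In that fit 6 decay genes were lower, since dcp1 was not called, and the values not called that changed sign were exo2 (0.016), lsm2 (0.014), lsm4 (0.00085), upf3 (0.017) and ski7 (0.034). Over the 13 alternatives not1 stayed between -0.75 and -0.67, dcp2 between -0.57 and -0.47, ccr4 between -0.46 and -0.40, and upf2 between -0.45 and -0.36, called in each. No ratio of paired genes changed direction. Every scaling is relative to the library's own counts and cannot show a loss or gain of most mRNAs together.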

Other observations

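Among the genes added once the names in the files were known, the decapping activator gene edc1 showed a wider change than any of the 10 decay genes or the 32 other genes of the list. It was at 4.48 ± 0.47 CPM in pla1-Y86D and 14.0 ± 0.53 CPM in pla1-WT (SD, n = 3 each), a log2 fold change of -1.63 (SE 0.10, adjusted p by edgeR = 3.1e-16). Edc1 is a partner of the Dcp1-Dcp2 enzyme. The gene pabp, for the cytoplasmic poly(A)-binding protein that coats the tail, was at 792 ± 12 CPM in pla1-Y86D and 1110 ± 8.8 CPM in pla1-WT, a log2 fold change of -0.49 (SE 0.025, adjusted p by edgeR = 5.9e-19). The added gene ebs1, annotated to nonsense-mediated decay, had a log2 fold change of -0.27.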
